A study of Mus musculus with 8 samples.

Results

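The genes described here are 39 genes of the actin cytoskeleton and of the programmes that the transcription factor SRF and the coactivator YAP are known to control. They comprise actins, actin-binding and myosin genes, focal adhesion genes, SRF and its targets, YAP targets, intermediate filament genes, and annexins, S100 proteins and galectin 1. They were taken as a given list of names. All 39 were found among the 24921 gene symbols of the count tables, with Ccn1 and Ccn2 being the current names of Cyr61 and Ctgf. RNA-seq counts came from 8 libraries of mouse V6.5 embryonic stem (ES) cells, a C57BL/6 by 129 hybrid line, 2 libraries in each of 4 groups. The dTAG group is the OCT4-FKBP line, whose OCT4 carries the FKBP degradation tag, after 24 h in dTag9, a compound that directs the tagged protein to degradation. The DMSO group is the same line after 24 h in the solvent. The WT no LIF group is untagged V6.5 after 5 days without the cytokine LIF, and the WT LIF group is untagged V6.5 kept in LIF. The labels give growth on gelatin in 2i medium (with MEK and GSK3 inhibitors) for all 8 libraries, also those without LIF. The labels do not say how many clones the tagged line stands for, nor whether replicate libraries came from separate cultures, so p-values measure the spread between libraries, which may be technical.

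Actin monomers bind the SRF coactivators MRTF-A and MRTF-B. When actin polymerises, the coactivators are set free, enter the nucleus and act with SRF at CArG boxes upstream of actin, calponin, vinculin and other cytoskeletal genes. YAP is held in the cytoplasm by the Hippo kinases and by angiomotins, and in the nucleus it binds TEAD factors at genes such as Ccn1, Ccn2, Ankrd1 and Amotl2. In early mouse embryos nuclear YAP is known for its part in trophectoderm, and smooth muscle actin and transgelin are known as markers of contractile cells.

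The depth was 7221451 to 11447468 counted reads per library. Counting was per RefSeq transcript, and reads in sequence shared by several transcripts were left uncounted as ambiguous, 42.2% to 43.0% of counted plus ambiguous reads. Of the 39 genes, 27 had a single accession, so that nothing within the gene was lost in this way, and 12 had several and were read only where their accessions differ. Actn4 and Tgfb1i1, with several accessions each, had no counted read, and Actg1 had 22 reads, Thbs1 had 21 and Actg2 had 13 over the 8 libraries. These 5 were not tested. All but Actg2 have several accessions, so their low counts say nothing about the level of the gene. The other 34 were tested. The agent acts on OCT4 protein, so its transcript is no check of the labels: Pou5f1 had 84.6 and 90.2 CPM in dTAG libraries, against 77.5 and 77.8 CPM in DMSO libraries. CPM is the usual depth-scaled count, here with TMM-adjusted library sizes.

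Promoter windows, from 250 bases before to 50 bases after the annotated start, were available in RefSeq (GRCm38.p6) for 30 of the 39 genes, 33 windows in all. A CArG box with the full consensus was found in 6 of the 33 windows (18.2%) and in 535 of all 32851 windows of that length (1.63%). The 6 genes were Actc1, Actg1, Cnn2, Myl9, Vcl and Srf. The TEAD motif GGAATG, searched on both strands, was found in 11 of the 33 windows (33.3%) and in 4817 of the 32851 (14.7%). Those 11 genes were Acta2, Tagln2, Tpm1, Cald1, Vcl, Flna, Actn4, Ccn1, Ankrd1, Amotl2 and Anxa1. Srf had 2 CArG boxes, Ankrd1 and Tagln2 had 2 TEAD motifs each, and Vcl had both kinds of match. A match describes the letters of the window and is not a measured binding site, and the windows use GRCm38.p6 coordinates whereas the reads were counted on mm9.

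The 250 bases before the start are shown for 6 genes whose levels are described below, chosen as the clearest carriers of each kind of match, and for both annotated starts of Cald1, whose accessions behaved differently. Capitals mark the motif matches (10 bases for a CArG box, 6 for a TEAD motif in either orientation), and each line runs 5′ to 3′ along the strand of the gene.
Srf, chr17:46556163-46556412, minus strand: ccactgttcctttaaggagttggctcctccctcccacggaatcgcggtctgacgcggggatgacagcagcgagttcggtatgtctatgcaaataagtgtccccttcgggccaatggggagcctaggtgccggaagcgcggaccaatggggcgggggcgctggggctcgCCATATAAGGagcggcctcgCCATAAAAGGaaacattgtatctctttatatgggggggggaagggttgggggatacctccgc
Cnn2, chr10:79988350-79988599, plus strand: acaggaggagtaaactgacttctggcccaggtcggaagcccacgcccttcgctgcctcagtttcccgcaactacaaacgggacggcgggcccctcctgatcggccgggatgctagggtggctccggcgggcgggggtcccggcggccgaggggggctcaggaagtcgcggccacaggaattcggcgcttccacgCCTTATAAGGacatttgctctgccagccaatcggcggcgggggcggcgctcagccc
Vcl, chr14:20929148-20929397, plus strand: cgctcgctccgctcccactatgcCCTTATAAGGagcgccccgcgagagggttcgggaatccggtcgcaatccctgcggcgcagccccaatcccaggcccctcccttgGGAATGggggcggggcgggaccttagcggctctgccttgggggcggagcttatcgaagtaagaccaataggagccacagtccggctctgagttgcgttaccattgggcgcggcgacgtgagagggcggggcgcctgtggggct
Ccn1, chr3:145649986-145650235, minus strand: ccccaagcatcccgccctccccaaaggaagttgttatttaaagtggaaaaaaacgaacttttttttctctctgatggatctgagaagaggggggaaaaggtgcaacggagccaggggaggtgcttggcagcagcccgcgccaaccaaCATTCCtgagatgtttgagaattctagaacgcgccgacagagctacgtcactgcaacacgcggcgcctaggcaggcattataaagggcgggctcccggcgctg
Amotl2, chr9:102717554-102717803, plus strand: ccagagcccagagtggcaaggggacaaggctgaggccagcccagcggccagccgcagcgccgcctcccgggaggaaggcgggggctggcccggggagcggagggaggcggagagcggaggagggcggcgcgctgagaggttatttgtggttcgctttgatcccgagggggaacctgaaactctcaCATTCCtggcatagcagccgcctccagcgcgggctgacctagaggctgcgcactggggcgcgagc
Ankrd1, chr19:36119845-36120094, minus strand: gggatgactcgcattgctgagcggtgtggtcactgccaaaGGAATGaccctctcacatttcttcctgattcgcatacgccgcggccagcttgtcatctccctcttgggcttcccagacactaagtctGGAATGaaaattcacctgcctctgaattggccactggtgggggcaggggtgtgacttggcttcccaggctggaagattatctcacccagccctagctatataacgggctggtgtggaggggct
Cald1 upstream start, chr6:34598254-34598503, plus strand: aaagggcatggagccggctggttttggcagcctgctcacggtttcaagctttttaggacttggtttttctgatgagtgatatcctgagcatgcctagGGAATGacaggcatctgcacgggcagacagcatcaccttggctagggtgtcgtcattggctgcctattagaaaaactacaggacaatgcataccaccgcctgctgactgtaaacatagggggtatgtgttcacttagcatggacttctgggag
Cald1 downstream start, chr6:34709194-34709443, plus strand: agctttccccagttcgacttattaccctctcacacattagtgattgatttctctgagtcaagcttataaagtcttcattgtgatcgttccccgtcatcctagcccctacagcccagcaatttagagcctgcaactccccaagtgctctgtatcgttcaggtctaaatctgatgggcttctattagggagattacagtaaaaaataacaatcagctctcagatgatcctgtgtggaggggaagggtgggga
The first CArG box of Srf begins 82 bases before the start and the second 62 bases before it, and that of Cnn2 begins 56 bases before the start. In Vcl the CArG box begins 227 bases and the TEAD motif 143 bases before the start. The TEAD motif begins 103 bases before the start of Ccn1, 65 before that of Amotl2 and 153 before the upstream start of Cald1. Ankrd1 has TEAD motifs beginning 210 and 123 bases before its start, and the downstream Cald1 window holds neither motif.

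**Figure D1:**
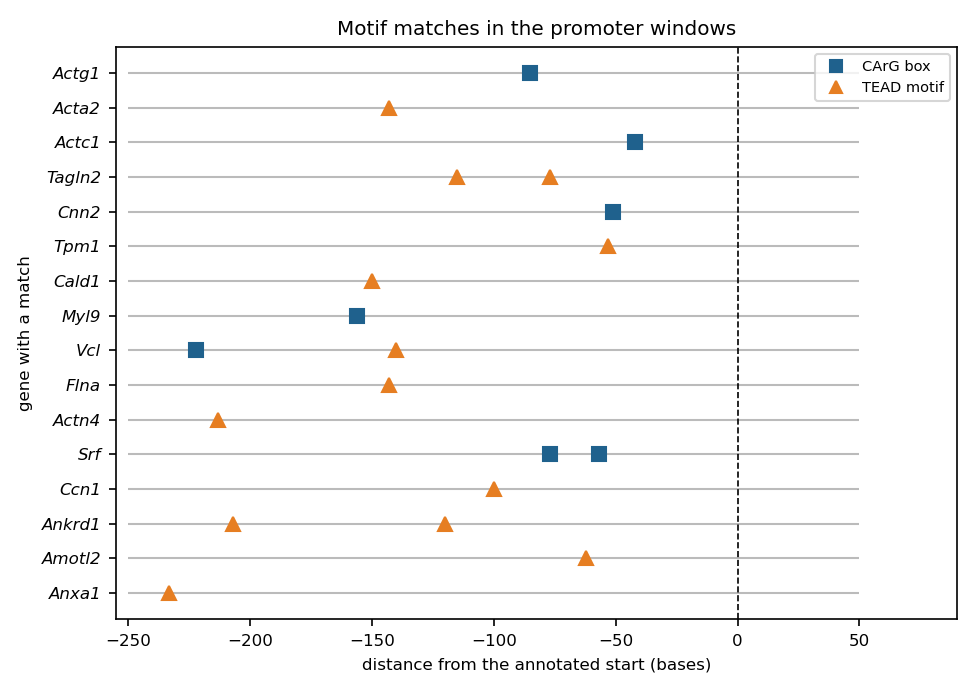
Motif matches in the promoter windows of the 16 listed genes with at least 1 match, against the distance from the annotated start in bases (0 is the start, negative values lie before it). Squares are CArG boxes and triangles are TEAD motifs, at the middle of each match, and every match lies before the start.

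After 24 h in dTag9 the set moved in both directions and mostly by small amounts. By edgeR's quasi-likelihood test at an adjusted p of 0.05, 11 of the 34 tested genes rose and 4 fell in dTAG against DMSO, and 20.1% of all 10311 tested genes rose and 20.3% fell. The 11 that rose were Lgals1, Anxa2, Lmna, Tpm2, S100a6, Tpm4, Tagln2, Vim, Myh9, Amotl2 and S100a11, and the 4 that fell were Ccn2, S100a10, Ccn1 and Vcl. The median log2 fold change of the 34 was 0.07 (0.08 with a gene at 0 reads in a group set to its bound), and that of all tested genes was 0.00. Among the 23 genes with at least 10 reads in every library, 10 rose and 4 fell, against 23.1% and 22.0% of the 7535 genes that met the same minimum.

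After 5 days without LIF most of the set was higher, and several smooth muscle genes that were near 0 in every other group were clearly read. By the same test 28 of the 34 rose and 3 fell in WT no LIF against WT LIF, and 34.0% of all tested genes rose and 34.4% fell. The 3 that fell were Vim, Csrp1 and Cnn3. The median log2 fold change was 1.95, and that of all tested genes was −0.02. For 8 of the 34, namely Acta2, Actc1, Cnn1, Tpm1, Myl9, Zyx, Ankrd1 and Anxa3, the WT no LIF libraries alone carried the gene past the filter on low counts, so these had to differ and do not count as support. Among the 23 genes with at least 10 reads in every library, 18 rose and 2 fell, against 33.4% and 36.4% of the 7535 genes that met the same minimum. The 39 genes together took 1.52% and 1.55% of counted reads in WT no LIF libraries and 0.917% and 0.914% in WT LIF libraries. They took 0.982% and 0.974% in dTAG libraries and 0.901% and 0.883% in DMSO libraries.

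**Figure D2:**
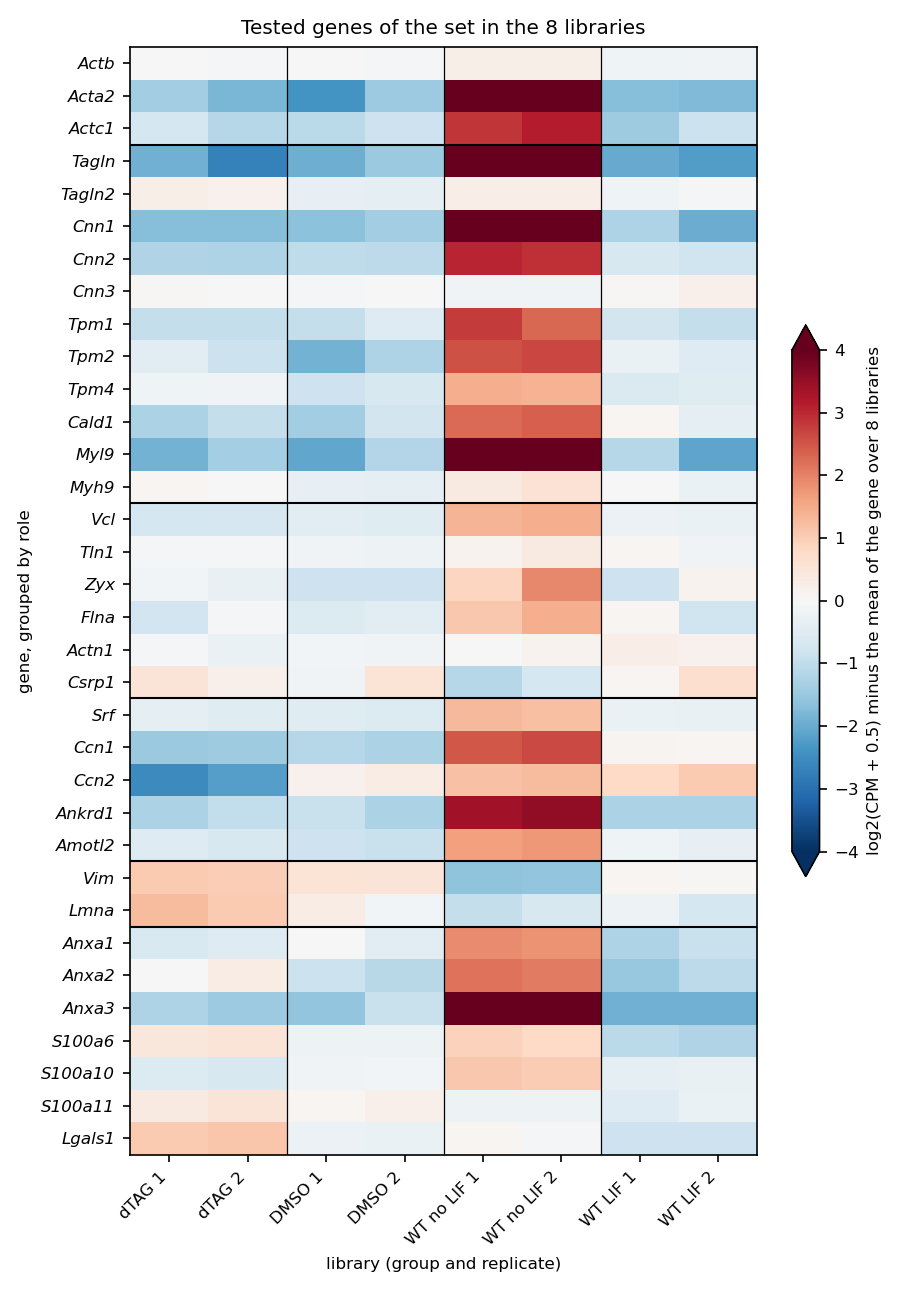
Level of the 34 tested genes (rows, grouped by role and separated by lines) in the 8 libraries (columns), as log2(CPM + 0.5) minus the mean of the gene over the 8 libraries; the colour scale stops at 4 above and 4 below that mean. Both WT no LIF columns are above the mean for most genes, and Vim, Lmna and Csrp1 are among the exceptions.

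Markers of other cell types moved with these responses, and their part in the results below was not tested. In bulk RNA, a change in the share of cells of a type and a change in RNA per cell cannot be told apart. The summed level of 10 ES cell markers was 2445 to 2469 CPM in dTAG and 7337 to 7378 CPM in DMSO libraries, and 2142 to 2178 CPM in WT no LIF and 8008 to 8052 CPM in WT LIF libraries. Tfcp2l1 was a large part of that sum, with 3205 and 3152 CPM in WT LIF libraries, and Nanog, with several accessions, had no read. Tdgf1 went the other way without LIF, with 1143 and 1136 CPM, against 664 and 761 CPM in WT LIF libraries. The sum of 8 trophoblast markers was 248 to 268 CPM in dTAG and 60.5 to 62.3 CPM in DMSO libraries. It was 1391 to 1499 CPM in WT no LIF and 23.5 to 24.6 CPM in WT LIF libraries. In dTAG libraries it was mostly Cdx2, at 192 and 169 CPM, against 30.7 and 35.0 CPM in DMSO libraries. Most of the trophoblast sum without LIF was Krt8 and Krt18, keratins of simple epithelia, while Gata3, with several accessions, was at 0 in every library. Of the 6 trophoblast markers tested, 5 rose and 1 fell without LIF, beside 34.0% and 34.4% of all tested genes. The one that fell was Tfap2c, with 13 reads in WT no LIF and 68 in WT LIF libraries. Cdx2 was low there, with 43 reads against 15, and Elf5, with several accessions, had no read in either group. For 7 smooth muscle markers that are not in the set, the sum was 27.7 to 28.7 CPM in dTAG and 16.5 to 17.0 CPM in DMSO libraries. It was 52.7 to 59.5 CPM in WT no LIF and 20.8 to 24.8 CPM in WT LIF libraries. Reads were found for 5 of the 7 in WT no LIF libraries and also for 5 in DMSO libraries. In the tagged line the sum was mostly Des, at 25.3 and 25.6 CPM in dTAG and 13.6 and 14.4 CPM in DMSO libraries. Of the 4 tested, 1 rose and 1 fell in dTAG, beside 20.1% and 20.3% of all tested genes. All 4 rose without LIF, beside 34.0% of all tested genes. Markers that only the WT no LIF libraries carried past the filter were not set apart, and their rises do not count as support. Synpo2, for example, had 267 reads in WT no LIF libraries and 9 in WT LIF libraries. Of the smooth muscle markers, the myosin gene Myh11 and the coactivator gene Myocd were at 0 in every library, but both have several accessions, so a 0 says nothing about their expression. The sum of 10 fibroblast markers was 94.1 to 103 CPM in dTAG and 122 to 123 CPM in DMSO libraries, and 52.5 to 53.4 CPM in WT no LIF and 165 to 175 CPM in WT LIF libraries. That sum is mostly Fn1, with 22.2 and 21.7 CPM in WT no LIF libraries, against 163 and 152 CPM in WT LIF libraries. Of the 6 fibroblast markers tested, 4 rose without LIF (Col1a1, Col1a2, Twist1 and Col3a1) and Fn1 fell, beside 34.0% and 34.4% of all tested genes. Col3a1 had no read in WT LIF libraries and passed the filter through the WT no LIF libraries alone, so its rise does not count as support. In dTAG Col1a2 rose and Col1a1 and Fn1 fell, beside 20.1% and 20.3% of all tested genes. Dcn and Postn, with several accessions each, were at 0 in every library. The sum of 9 cardiac and skeletal muscle markers was 21.5 to 27.0 CPM in dTAG, 11.4 to 16.1 CPM in DMSO, 2.45 to 2.82 CPM in WT no LIF and 18.5 to 19.2 CPM in WT LIF libraries, with Myh6, Myh7 and Tnnt2 (several accessions each) at 0 in all 8. Most of it in dTAG libraries was Tnni3, at 18.1 and 22.2 CPM, against 6.18 and 10.9 CPM in DMSO libraries. Myl7 was lower in dTAG libraries, at 3.28 and 4.33 CPM, against 5.05 and 5.10 CPM in DMSO libraries. The sum of 6 endoderm markers was 17.0 to 20.9 CPM in dTAG, 0.421 to 1.06 CPM in DMSO, 5.29 to 6.00 CPM in WT no LIF and 1.76 to 1.77 CPM in WT LIF libraries. In dTAG libraries that sum is nearly all Gata6, at 20.6 and 16.9 CPM, against 0.281 and 0.792 CPM in DMSO libraries, while Sox7 had no read in dTAG and 4 reads in DMSO libraries.

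Among the actins, the muscle actins were read almost only without LIF, while the cytoplasmic Actb moved little. Actb, cytoplasmic beta-actin, had 4757 and 4659.6 CPM in dTAG libraries, against 4805 and 4657 CPM in DMSO libraries. It had 5669 and 5665 CPM in WT no LIF libraries, against 4319 and 4404 CPM in WT LIF libraries. The dTAG and DMSO values overlapped (log2 fold change −0.01 ± 0.05 SE, edgeR adjusted p = 0.934), whereas both WT no LIF libraries lay above both WT LIF libraries and Actb rose (0.38 ± 0.05 SE, edgeR adjusted p = 1.31e-07). Acta2, the smooth muscle alpha-actin, had 0.766 and 0.444 CPM in dTAG libraries, against 0.140 and 0.704 CPM in DMSO libraries. Acta2 had 128 and 125 CPM in WT no LIF libraries, against 0.530 and 0.471 CPM in WT LIF libraries. It was thus at a handful of reads in 6 libraries and high in the 2 without LIF, where it rose 245-fold (log2 7.94 ± 0.19 SE, edgeR adjusted p = 1.14e-22). Actc1, the cardiac alpha-actin, had 9.31 and 11.3 CPM in WT no LIF libraries, against 0 and 0.235 CPM in WT LIF libraries. With 192 reads against 2 reads the ratio was 99.9, with an exact 95% interval of 27.3 to 831 (edgeR adjusted p = 5.91e-12). Acta2 and Actc1 passed the filter through the WT no LIF libraries alone, so their rises and p-values do not count as support. In dTAG libraries Actc1 had 0.328 and 0.111 CPM, against 0.140 and 0.264 CPM in DMSO libraries. Actg2, the smooth muscle gamma-actin, had 10 and 1 reads in WT no LIF libraries and no read in WT LIF libraries, at least 3.82-fold higher against a floor of 3 reads over the group, and was not tested.

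**Figure D3:**
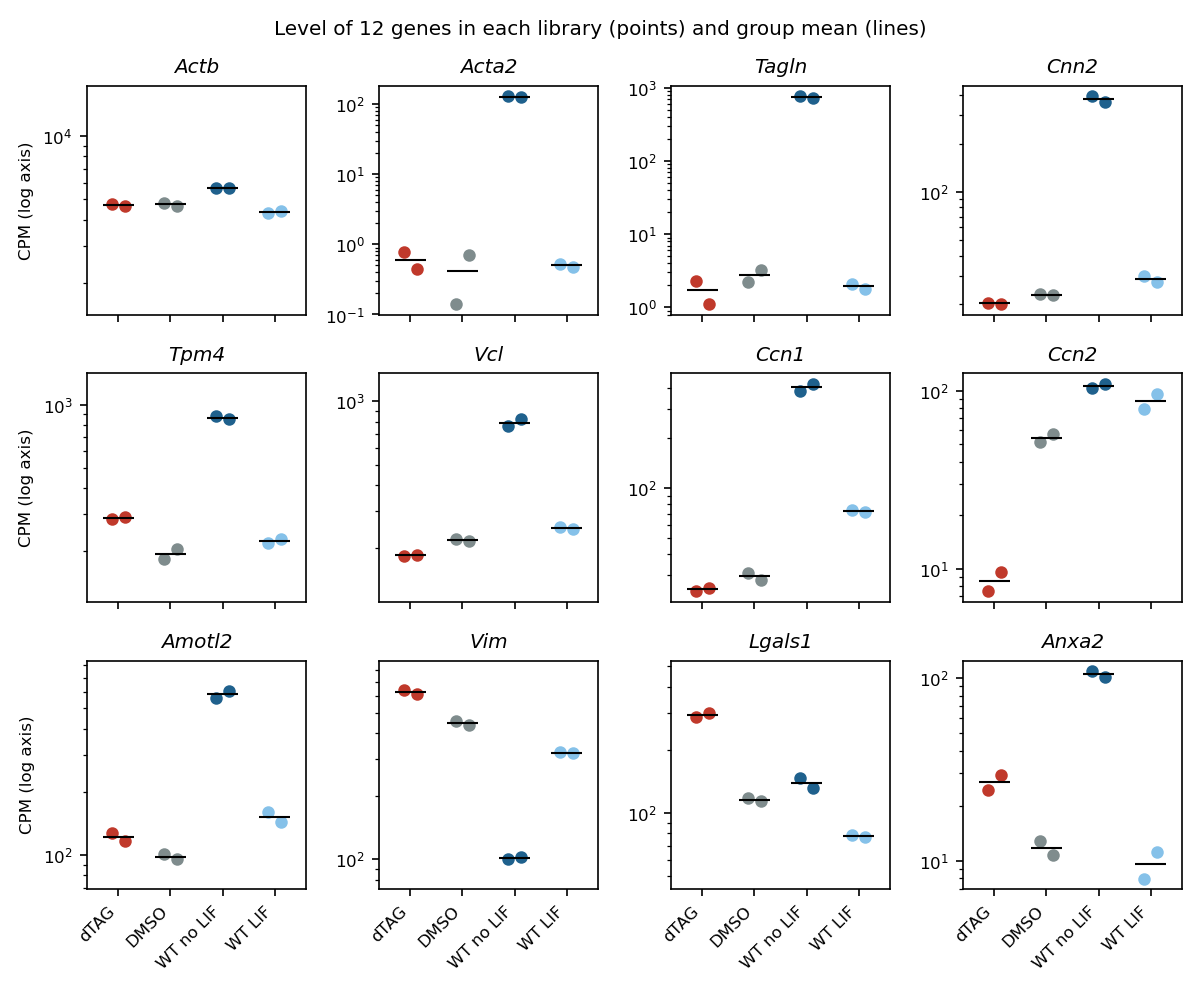
CPM of 12 genes in each of the 8 libraries (points; log axes that differ between panels) with the mean of the 2 libraries of each group (lines). Acta2, Tagln, Cnn2, Tpm4, Vcl, Ccn1, Amotl2 and Anxa2 are highest in both WT no LIF libraries, Ccn2 is lowest in both dTAG libraries, and Vim and Lgals1 are highest in both dTAG libraries.

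Thin filament and motor genes divided into a muscle-type group that was near 0 outside the WT no LIF libraries and a non-muscle group read in all libraries. Tagln, the smooth muscle transgelin that bundles actin, had 763 and 725 CPM in WT no LIF libraries, against 2.12 and 1.76 CPM in WT LIF libraries. Its dTAG libraries had 2.30 and 1.11 CPM, against 2.25 and 3.26 CPM in DMSO libraries. Both WT no LIF libraries were far above the other 6, with a rise of 376-fold over WT LIF (log2 8.55 ± 0.12 SE, edgeR adjusted p = 3.71e-27). The dTAG and DMSO values overlapped (−0.74 ± 0.31 SE, edgeR adjusted p = 0.0617), and the fall would pass without DMSO replicate 1 (adjusted p = 0.032) or without dTAG replicate 1 (adjusted p = 0.0106). Over all its alternatives this adjusted p ran from 0.0106 to 0.557.

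Cnn1, the smooth muscle calponin, had 55.4 and 56.9 CPM in WT no LIF libraries, against 0.353 and 0 CPM in WT LIF libraries. Its dTAG libraries had 0.109 and 0.111 CPM, against 0.140 and 0.264 CPM in DMSO libraries. Myl9, a regulatory light chain of myosin II, had 75.4 and 81.3 CPM in WT no LIF libraries, against 0.706 and 0.118 CPM in WT LIF libraries. Cnn1 and Myl9 were read mainly without LIF, by fitted folds of 261 and 167, and both passed the filter through those libraries alone. Myl9 had 0.219 and 0.555 CPM in dTAG libraries, against 0.140 and 0.704 CPM in DMSO libraries, so these groups overlapped. Tpm1, a tropomyosin read here through a single one of its 10 accessions, had 6.23 and 4.23 CPM in WT no LIF libraries, against 0.0883 and 0 CPM in WT LIF libraries. With 104 reads against 1 read, its ratio was 108, with an exact 95% interval of 19.0 to 4317. This gene too passed the filter through the WT no LIF libraries alone. Tpm1 had no read in dTAG libraries and 2 reads in DMSO libraries, which allow no fold.

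Cnn2, a calponin of non-muscle and smooth muscle cells, had 394 and 363 CPM in WT no LIF libraries, against 30.02 and 27.3 CPM in WT LIF libraries. In dTAG libraries Cnn2 had 20.4 and 20.0 CPM, against 23.02 and 22.7 CPM in DMSO libraries. The gene was read in every library and rose 13.2-fold without LIF (log2 3.72 ± 0.08 SE, edgeR adjusted p = 7.46e-24), while the dTAG difference did not pass (−0.18 ± 0.11 SE, edgeR adjusted p = 0.194). Cnn3, the acidic calponin, had 607 and 613 CPM in WT no LIF libraries, against 691 and 778 CPM in WT LIF libraries. Cnn3 had 693 and 686 CPM in dTAG libraries, against 652 and 670.5 CPM in DMSO libraries. It was the only calponin of the 3 that fell without LIF (−0.27 ± 0.06 SE, edgeR adjusted p = 0.000125), both libraries lying below both WT LIF libraries. Tagln2, the transgelin of non-muscle cells, had 292 and 283 CPM in dTAG libraries, against 200.3 and 195 CPM in DMSO libraries. It had 301 and 304 CPM in WT no LIF libraries, against 220.3 and 236 CPM in WT LIF libraries. Tagln2 rose in both comparisons, by 0.54 ± 0.06 SE with dTag9 (edgeR adjusted p = 1.19e-08) and by 0.41 ± 0.06 SE without LIF (edgeR adjusted p = 3.47e-07), without overlap of the groups.

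The tropomyosin Tpm4 had 284 and 292 CPM in dTAG libraries, against 183 and 205.5 CPM in DMSO libraries. It had 885 and 849.9 CPM in WT no LIF libraries, against 218 and 228 CPM in WT LIF libraries. Tpm4 rose in both comparisons, 1.48-fold in dTAG (edgeR adjusted p = 1.73e-08) and 3.89-fold in WT no LIF (edgeR adjusted p = 1.83e-20). Tpm2, beta-tropomyosin of muscle, had 3.17 and 2.22 CPM in dTAG libraries, against 0.842 and 1.58 CPM in DMSO libraries. It had 28.3 and 31.0 CPM in WT no LIF libraries, against 3.62 and 2.94 CPM in WT LIF libraries. Tpm2 rose without LIF (log2 3.15 ± 0.18 SE, edgeR adjusted p = 2.71e-14), and its rise in dTAG (1.05 ± 0.36 SE, edgeR adjusted p = 0.0204) rested on 49 against 24 reads and was lost without DMSO replicate 1 (adjusted p = 0.139) or dTAG replicate 1 (adjusted p = 0.21; 0.00442 to 0.21 over all alternatives). Myh9, the heavy chain of non-muscle myosin IIA, had 1962 and 1869.8 CPM in dTAG libraries, against 1497 and 1414 CPM in DMSO libraries. It had 2416.5 and 2822 CPM in WT no LIF libraries, against 1852 and 1545 CPM in WT LIF libraries. Myh9 rose by 0.40 ± 0.07 SE with dTag9 (edgeR adjusted p = 4.6e-05) and by 0.62 ± 0.07 SE without LIF (edgeR adjusted p = 1.37e-08), and the difference between these changes did not pass (−0.23, edgeR adjusted p = 0.0551). That difference depends on the fit: without WT LIF replicate 1 it was −0.36 and passed (adjusted p = 0.000157), and over all alternatives the adjusted p ran from 0.000157 to 0.286.

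Of the 6 tested adhesion and cross-linking genes, 4 rose and 1 fell without LIF, beside 34.0% and 34.4% of all tested genes. Of the 4, Zyx passed the filter through the WT no LIF libraries alone and does not count as support. With at least 10 reads in every library, 3 of 4 rose and 0 fell, beside 33.4% and 36.4% of the 7535 genes that met this minimum. Vcl, which links talin and alpha-actinin to actin at adhesions, had 759 and 820.0 CPM in WT no LIF libraries, against 251 and 247 CPM in WT LIF libraries. Vcl had 184 and 186 CPM in dTAG libraries, against 222 and 216 CPM in DMSO libraries. It thus rose 3.16-fold without LIF (edgeR adjusted p = 1.55e-19) and fell slightly in dTAG (−0.24 ± 0.06 SE, edgeR adjusted p = 0.00139), with no overlap either way. Tln1, talin, which couples integrins to actin, had 619 and 718 CPM in WT no LIF libraries, against 594 and 513 CPM in WT LIF libraries. Tln1 had 549.6 and 546 CPM in dTAG libraries, against 511 and 492 CPM in DMSO libraries. It rose by 0.27 ± 0.07 SE without LIF (edgeR adjusted p = 0.000778), and the dTAG difference of 0.13 ± 0.07 SE did not pass (edgeR adjusted p = 0.132), although it passed in some fits, as with the 4 libraries alone (adjusted p = 0.00387; 0.00387 to 0.423 over all alternatives). Flna, filamin A, which cross-links actin filaments, had 16.2 and 21.0 CPM in WT no LIF libraries, against 7.77 and 3.9995 CPM in WT LIF libraries. Flna had 4.16 and 6.88 CPM in dTAG libraries, against 4.91 and 5.28 CPM in DMSO libraries, and rose only without LIF (1.58 ± 0.22 SE, edgeR adjusted p = 3.76e-07; in dTAG adjusted p = 0.811). Flna was read only where its 2 accessions differ, and each of them rose without LIF. Zyx, the adhesion protein zyxin, had 34 reads in WT no LIF libraries against 4 in WT LIF libraries, and 5 in dTAG libraries against none in DMSO libraries, all from 1 of its 4 accessions. Csrp1, a LIM protein of the actin cytoskeleton, fell without LIF on 5 reads against 28 (edgeR adjusted p = 0.00204), a call lost without WT no LIF replicate 1 (adjusted p = 0.0774; 0.000291 to 0.0774 over all alternatives).

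Actn1, alpha-actinin, which cross-links actin and binds vinculin, did not pass in either response when its 2 accessions were summed. It had 24.7 and 21.8 CPM in dTAG libraries, against 24.3 and 23.6 CPM in DMSO libraries. It had 26.5 and 28.8 CPM in WT no LIF libraries, against 31.9 and 29.9 CPM in WT LIF libraries. The accessions moved apart without LIF. NM_134156 had 7.68 and 8.86 CPM in WT no LIF libraries, against 16.9 and 14.8 CPM in WT LIF libraries, and fell (−0.96 ± 0.16 SE, edgeR adjusted p = 7.05e-06). NM_001346669 had 18.9 and 19.9 CPM in WT no LIF libraries, against 14.9 and 15.1 CPM in WT LIF libraries, and rose (0.37 ± 0.14 SE, edgeR adjusted p = 0.0219). In the tagged line NM_134156 was the higher accession in both groups, with 21.3 and 17.0 CPM in dTAG and 20.5 and 19.0 CPM in DMSO libraries. NM_001346669 had 3.39 and 4.88 CPM in dTAG and 3.79 and 4.58 CPM in DMSO libraries. It was lower in DMSO than in WT LIF libraries (−1.79 ± 0.19 SE, edgeR adjusted p = 1.98e-08). These reads come only from sequence that tells the accessions apart, so the 2 values are not shares of the gene.

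Cald1, caldesmon, which binds actin, tropomyosin and myosin, also changed by accession. The gene had 21.7 and 23.5 CPM in WT no LIF libraries, against 4.33 and 3.06 CPM in WT LIF libraries, and rose 5.94-fold (edgeR adjusted p = 5.25e-12). NM_001347100, which begins at the upstream start shown above, had 17.5 and 19.0 CPM in WT no LIF libraries and no read in WT LIF libraries. It had 345 reads over the 8 libraries, and 205 and 139 of them came from the WT no LIF libraries. NM_145575, which begins at the downstream start, had 4.18 and 4.50 CPM in WT no LIF libraries, against 4.33 and 3.06 CPM in WT LIF libraries, with a log2 difference of 0.20 that did not pass (edgeR adjusted p = 0.53). Nearly all counted Cald1 reads gained without LIF thus lay in sequence particular to NM_001347100. Reads in sequence shared by both accessions were not counted, so these values are not shares of the gene. Summed over both accessions, Cald1 had 1.42 and 1.89 CPM in dTAG libraries, against 1.26 and 2.29 CPM in DMSO libraries, and these overlapped.

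**Figure D4:**
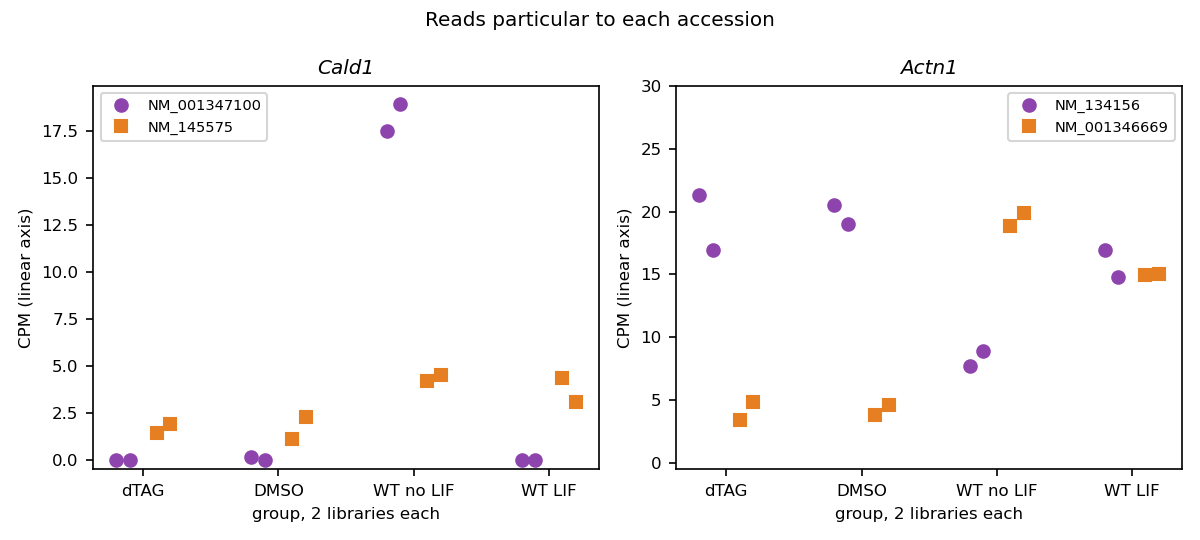
CPM of the reads particular to each accession of Cald1 and Actn1 in the 8 libraries (linear axes, 2 points per group and accession; circles and squares are the accessions). The upstream Cald1 accession is at 17.5 and 19.0 CPM in WT no LIF libraries and at or near 0 elsewhere, and the order of the Actn1 accessions in WT no LIF is the opposite of that in dTAG and DMSO.

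Srf, Ccn1 and Amotl2 were severalfold higher without LIF, Ccn2 changed little there, and in dTAG libraries Ccn2 was low. Srf itself had 218 and 203 CPM in WT no LIF libraries, against 73.7 and 71.8 CPM in WT LIF libraries. It had 67.6 and 62.7 CPM in dTAG libraries, against 63.2 and 61.1 CPM in DMSO libraries. Srf rose 2.89-fold without LIF (log2 1.53 ± 0.07 SE, edgeR adjusted p = 1.12e-16), while dTAG and DMSO overlapped (0.07 ± 0.08 SE, edgeR adjusted p = 0.496). Ccn2, a secreted matricellular protein and widely used YAP readout, had 7.44 and 9.54 CPM in dTAG libraries, against 51.4 and 56.9 CPM in DMSO libraries. It had 104 and 109.6 CPM in WT no LIF libraries, against 79.4 and 95.5 CPM in WT LIF libraries. Ccn2 fell by 2.68 on the log2 scale in dTAG (SE 0.13, edgeR adjusted p = 4.41e-15), 6.41-fold lower, the greatest fall of the 34 genes among those past the test in that comparison. Its rise without LIF was small (0.29 ± 0.09 SE, edgeR adjusted p = 0.00439) and was lost without WT LIF replicate 1 (0.15, adjusted p = 0.148; 1.73e-05 to 0.148 over all alternatives).

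Ccn1, a related secreted protein, had 386 and 425 CPM in WT no LIF libraries, against 73.5 and 71.5 CPM in WT LIF libraries. It had 23.7 and 25.1 CPM in dTAG libraries, against 30.7 and 27.8 CPM in DMSO libraries. Ccn1 rose 5.58-fold without LIF (edgeR adjusted p = 3.07e-21), and its fall in dTAG was at the edge of the test (−0.25 ± 0.10 SE, edgeR adjusted p = 0.04999). That fall was lost on leaving out any of the 4 dTAG and DMSO libraries (adjusted p between 0.053 and 0.257) and with DESeq2 (adjusted p = 0.119), and over all alternatives the adjusted p ran from 0.0386 to 0.257. Amotl2, an angiomotin family member that binds YAP and is itself a YAP target, had 127 and 116 CPM in dTAG libraries, against 101 and 96.1 CPM in DMSO libraries. It had 559 and 605 CPM in WT no LIF libraries, against 161 and 143 CPM in WT LIF libraries. Amotl2 rose in both, by 0.31 ± 0.07 SE in dTAG (edgeR adjusted p = 0.000946) and by 1.93 ± 0.06 SE without LIF (edgeR adjusted p = 1.87e-19), and so went the other way from Ccn1 and Ccn2 in dTAG. Ankrd1, an ankyrin repeat protein and YAP target, had 11.9 and 13.6 CPM in WT no LIF libraries and no read in WT LIF libraries. With 239 reads against none it was at least 82.9-fold higher against a floor of 3 reads over the group, and it had 1 read in dTAG and 1 in DMSO libraries. This gene too passed the filter through the WT no LIF libraries alone. Thbs1, the matrix protein thrombospondin 1, had 10 and 11 reads in WT no LIF libraries and none in the other 6 libraries, at least 7.29-fold higher than in WT LIF.

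Vim and Lmna, the only intermediate filament genes of the set, did not follow the actin genes. This does not hold for the class, since the keratin genes Krt7, Krt8 and Krt18, outside the set, were higher without LIF. Krt8, for example, had 521 and 477 CPM in WT no LIF libraries, against 10.9 and 9.29 CPM in WT LIF libraries. Vim, vimentin, the intermediate filament protein of mesenchymal cells, had 637 and 612 CPM in dTAG libraries, against 457 and 438 CPM in DMSO libraries. It had 100.1 and 103 CPM in WT no LIF libraries, against 324 and 319 CPM in WT LIF libraries. Vim rose by 0.48 ± 0.05 SE in dTAG (edgeR adjusted p = 1.97e-08) and was 3.18-fold lower in WT no LIF (−1.67 ± 0.06 SE, edgeR adjusted p = 5.34e-19), with no overlap in either comparison. Lmna, which encodes the A-type lamins of the nuclear envelope, had 31.3 and 26.4 CPM in dTAG libraries, against 15.7 and 11.6 CPM in DMSO libraries. It had 6.23 and 7.91 CPM in WT no LIF libraries, against 11.04 and 7.65 CPM in WT LIF libraries. Lmna rose 2.16-fold in dTAG (edgeR adjusted p = 1.76e-06), and the WT no LIF and WT LIF libraries overlapped (−0.46 ± 0.21 SE, edgeR adjusted p = 0.0513). All its reads fell on 1 of its 3 accessions, and the last difference passed in several other fits, for instance without WT LIF replicate 2 (−0.65, adjusted p = 0.00582; 0.00582 to 0.606 over all alternatives).

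Of the 7 annexin, S100 and galectin genes, 4 rose and 1 fell in dTAG (all tested genes 20.1% and 20.3%), and 6 rose without LIF (all tested genes 34.0%), Anxa3 among them through the WT no LIF libraries alone. Annexins bind membranes in the presence of calcium, and S100 proteins are small calcium-binding proteins that pair with them. Anxa2, which binds membrane phospholipids and actin, had 24.3 and 29.3 CPM in dTAG libraries, against 12.8 and 10.7 CPM in DMSO libraries. It had 109 and 101 CPM in WT no LIF libraries, against 7.95 and 11.2 CPM in WT LIF libraries. Anxa2 rose in both comparisons, 2.31-fold in dTAG (edgeR adjusted p = 1.08e-07) and 11.2-fold in WT no LIF (edgeR adjusted p = 8.23e-19). S100a10, the binding partner of Anxa2, had 65.2 and 62.1 CPM in dTAG libraries, against 86.8 and 88.5 CPM in DMSO libraries. It had 206 and 196 CPM in WT no LIF libraries, against 75.3 and 77.9 CPM in WT LIF libraries. Unlike Anxa2, S100a10 fell in dTAG (−0.46 ± 0.07 SE, edgeR adjusted p = 8.93e-06), and it rose 2.63-fold without LIF (edgeR adjusted p = 4.04e-16). Lgals1, a galactoside-binding lectin, had 288 and 299.7 CPM in dTAG libraries, against 117 and 114 CPM in DMSO libraries. It had 147 and 131 CPM in WT no LIF libraries, against 78.4 and 76.9 CPM in WT LIF libraries. Lgals1 had the smallest adjusted p of the set in dTAG and the highest rise of those called there (log2 1.34 ± 0.06 SE, edgeR adjusted p = 2.08e-15), and it rose by 0.85 ± 0.07 SE without LIF (edgeR adjusted p = 2.58e-11).

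S100a6 had 21.5 and 22.5 CPM in dTAG libraries, against 13.5 and 13.6 CPM in DMSO libraries. It had 30.4 and 27.4 CPM in WT no LIF libraries, against 7.24 and 6.59 CPM in WT LIF libraries. The gene rose in both, by 0.70 ± 0.13 SE in dTAG (edgeR adjusted p = 7.47e-05) and 2.06 ± 0.14 SE in WT no LIF (edgeR adjusted p = 4.71e-13). S100a11, a partner of Anxa1, had 55.0 and 60.8 CPM in dTAG libraries, against 45.1 and 49.0 CPM in DMSO libraries. It had 37.0 and 36.7 CPM in WT no LIF libraries, against 29.7 and 35.6 CPM in WT LIF libraries. S100a11 rose in dTAG (0.29 ± 0.09 SE, edgeR adjusted p = 0.0146), a call lost without DMSO replicate 1 (adjusted p = 0.126), without dTAG replicate 2 (adjusted p = 0.181) and with DESeq2 (adjusted p = 0.0645; 0.00323 to 0.181 over all alternatives), and the LIF difference did not pass (0.18, adjusted p = 0.116). Without WT LIF replicate 2 that difference was 0.34 and passed (adjusted p = 0.00794; 0.00794 to 0.781 over all alternatives). Anxa1 had 45.7 and 42.1 CPM in WT no LIF libraries, against 4.77 and 6.12 CPM in WT LIF libraries. In dTAG libraries Anxa1 had 7.55 and 8.10 CPM, against 12.1 and 8.62 CPM in DMSO libraries. This annexin rose 8.21-fold without LIF (edgeR adjusted p = 1.26e-15) and did not pass in dTAG (−0.36 ± 0.18 SE, edgeR adjusted p = 0.123). Without DMSO replicate 2 the dTAG difference of Anxa1 was −0.63 and passed (adjusted p = 0.0234; 0.0234 to 0.649 over all alternatives). Anxa3 had 71.2 and 71.4 CPM in WT no LIF libraries and 0.353 CPM in each WT LIF library. With 0.876 and 0.665 CPM in dTAG libraries, against 0.562 and 1.23 CPM in DMSO libraries, Anxa3 was low in all 6 libraries other than those without LIF.

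Set side by side, the responses to dTag9 and to LIF withdrawal use separate control libraries, and their difference was tested as an interaction in the same fit. The dTAG response minus the LIF withdrawal response was positive and past the test for 5 of the 34 genes and negative for 23, against 28.6% and 26.4% of all tested genes. The median difference was −1.74 for the 34 and 0.02 for all tested genes. Of the 8 genes that the WT no LIF libraries alone carried past the filter, all but Zyx were among the negative ones. The filter favoured that sign, so these genes do not count as support. Among the 23 genes with at least 10 reads in every library 4 were positive and 14 negative, against 31.7% and 27.7%. The 5 positive genes were Vim (2.15 ± 0.08 SE, edgeR adjusted p = 4.39e-18), Csrp1, Lmna, Lgals1 and Cnn3. That of Csrp1, with 5 reads in WT no LIF libraries, was lost with DESeq2 (adjusted p = 0.0694) and without dTAG replicate 1 (0.0514), WT LIF replicate 2 (0.0669) or WT no LIF replicate 1 (0.126), and ran from 0.00494 to 0.126 over all alternatives. The share of all tested genes with each pair of calls was not worked out, so the pairs below only describe the set. By pairs of calls, 8 genes rose in both responses, namely Amotl2, Anxa2, Lgals1, Myh9, S100a6, Tagln2, Tpm2 and Tpm4. Another 4, Ccn1, Ccn2, S100a10 and Vcl, fell in dTAG and rose without LIF, and Vim did the reverse. The remaining called pairs were 16 genes that passed as higher only in the LIF comparison, 2 that passed as lower only there and 2, Lmna and S100a11, that passed as higher only in dTAG. The 16 include the 8 genes that the WT no LIF libraries alone carried past the filter. For S100a11 the difference between the responses did not pass (0.11 ± 0.14 SE, edgeR adjusted p = 0.538), so its calls do not show that the responses differ. The same holds for Tagln2, Tln1, Myh9, Zyx and the summed reads of Actn1. By NM_134156 alone, Actn1 had a difference of 0.93 ± 0.21 SE that passed (edgeR adjusted p = 0.000524). By NM_001346669 it was −0.41 and did not pass (edgeR adjusted p = 0.215). Without WT LIF replicate 1 the difference of Tln1 went from −0.14 to −0.25 and that of Tagln2 from 0.13 to 0.19. In Lgals1, the difference was 0.50 ± 0.09 SE towards the larger rise in dTAG (edgeR adjusted p = 6.31e-05).

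**Figure D5:**
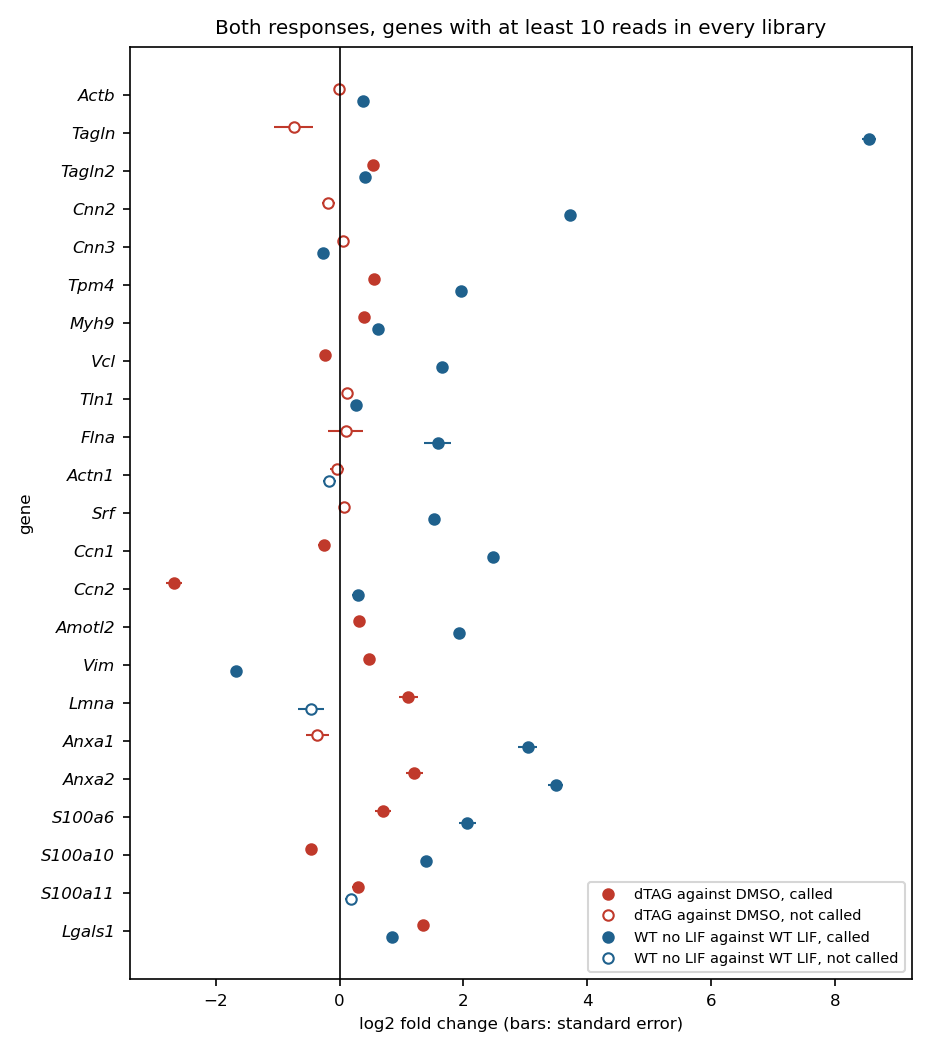
Log2 fold changes of the 23 genes with at least 10 reads in every library, with standard errors as bars, for dTAG against DMSO and WT no LIF against WT LIF; filled symbols passed the edgeR test and open symbols did not. Ccn2 stands apart at −2.68 in dTAG, Tagln at 8.55 in WT no LIF, and Vim lies at 0.48 in dTAG and −1.67 in WT no LIF.

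The tagged line in DMSO and the parental line in LIF already differed in this set without dTag9 or LIF withdrawal. These libraries are the controls of the comparisons above. Pou5f1 had 77.5 and 77.8 CPM in DMSO libraries, against 425 and 336 CPM in WT LIF libraries. It was read only where its 2 accessions differ, and OCT4 protein was not measured here. The tag, the clone, DMSO and the culture batch cannot be told apart here. Of the 34 genes, 8 were higher and 13 lower in DMSO than in WT LIF, against 18.5% and 22.1% of all tested genes, and the median was −0.07 (−0.12 with genes at 0 reads in a group set to their bound) against −0.03 for all tested genes. The count of 13 became 6 without DMSO replicate 1 and 6 without DMSO replicate 2. Among the 23 genes with at least 10 reads in every library, 7 were higher and 11 lower, against 21.8% and 24.5%. The YAP targets Ccn1, Ccn2 and Amotl2 were among the lower genes, and Ankrd1, with 1 read in DMSO and none in WT LIF libraries, allows no fold. Ccn1 was 2.50-fold lower in DMSO (−1.32 ± 0.09 SE, edgeR adjusted p = 4.04e-12), Ccn2 had a log2 difference of −0.68 ± 0.09 SE (edgeR adjusted p = 1.71e-06) and Amotl2 one of −0.63 ± 0.07 SE (edgeR adjusted p = 7.08e-08). Tpm2 was also lower (−1.35 ± 0.34 SE, edgeR adjusted p = 0.00221). Annexin, S100 and galectin genes were instead higher in the tagged line, 6 of 7 by the test, beside 18.5% of all tested genes. Of these, Anxa3 and S100a10 were lost without DMSO replicate 2 (adjusted p = 0.624 and 0.114), without WT LIF replicate 1 (0.159 and 0.119) and with DESeq2 (0.0755 and 0.0511). Over all alternatives the adjusted p ran from 0.019 to 0.624 for Anxa3 and from 0.01 to 0.119 for S100a10. The log2 difference was 0.96 ± 0.16 SE for S100a6 (edgeR adjusted p = 2.09e-05), 0.90 ± 0.19 SE for Anxa1 (edgeR adjusted p = 0.000555) and 0.57 ± 0.07 SE for Lgals1 (edgeR adjusted p = 2.78e-07). Vim was higher by 0.47 ± 0.05 SE (edgeR adjusted p = 7.26e-08).

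Other genes of these pathways, outside the 39, were counted in 4 lists. The counts are to be read against 20.1% higher and 20.3% lower of all tested genes in dTAG (median 0.00) and 34.0% and 34.4% without LIF (median −0.02). Genes that only the WT no LIF libraries carried past the filter were not set apart here, and their rises do not count as support. Of 35 components of the SRF and YAP pathways, 27 were tested, of which 10 rose and 4 fell in dTAG (median 0.08), and 14 rose and 5 fell without LIF (median 0.20). Those with the smallest adjusted p were Rhob, Amot and Amotl1 in dTAG and Amot, Lats2 and Amotl1 without LIF. Amot, the angiomotin that holds YAP at junctions and actin, had 39.5 and 37.3 CPM in dTAG libraries, against 2.67 and 3.78 CPM in DMSO libraries. It had 210.4 and 241 CPM in WT no LIF libraries, against 3.53 and 2.12 CPM in WT LIF libraries, and so rose in both, by 3.52 ± 0.17 SE and 6.26 ± 0.14 SE on the log2 scale (edgeR adjusted p = 2.12e-15 in dTAG and 2.62e-23 without LIF). Amotl1, a paralog, had 47.3 and 43.0 CPM in dTAG libraries, against 123 and 115 CPM in DMSO libraries, and fell (−1.39 ± 0.08 SE, edgeR adjusted p = 1.82e-13), while it rose without LIF (0.84 ± 0.07 SE, edgeR adjusted p = 3.27e-11). Rhob, a small GTPase of actin dynamics, had 174 and 173 CPM in dTAG libraries, against 51.5 and 51.0 CPM in DMSO libraries. Lats2, a Hippo kinase that restrains YAP and is itself a YAP target, had 60.8 and 62.5 CPM in WT no LIF libraries, against 6.36 and 6.59 CPM in WT LIF libraries.

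Of 30 other SRF and YAP target genes, 22 were tested, of which 8 rose and 6 fell in dTAG (median −0.03), and 19 rose and 1 fell without LIF (median 1.33), where 34.0% and 34.4% of all tested genes did. In dTAG the smallest adjusted p belonged to Rnd3, which fell (−1.98 ± 0.08 SE), to the glucose transporter gene Slc2a3, which rose (1.39 ± 0.05 SE), and to Fos, which rose (2.98 ± 0.22 SE; edgeR adjusted p of 1.46e-11 or less for all 3). Fos had 17.2 and 21.5 CPM in dTAG libraries, against 2.39 and 2.46 CPM in DMSO libraries. Without LIF they belonged to Ptpn14, a phosphatase that binds YAP, Igfbp3, which binds insulin-like growth factors, and Pdlim7, a PDZ and LIM protein of actin filaments. Igfbp3 had 391 and 382 CPM in WT no LIF libraries, against 12.2 and 10.9 CPM in WT LIF libraries, and rose 33.2-fold (edgeR adjusted p = 6.52e-25). Ptpn14 rose 14.8-fold (edgeR adjusted p = 5.61e-25) and Pdlim7 rose 13.4-fold (edgeR adjusted p = 4.37e-20).

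Of 28 integrin and adhesion genes, 13 were tested, of which 5 rose and 2 fell in dTAG (median 0.05), and 9 rose and 2 fell without LIF (median 1.18), again beside 34.0% and 34.4% of all tested genes. Itga1, the integrin alpha 1 subunit, had 86.8 and 89.6 CPM in dTAG libraries, against 7.72 and 6.601 CPM in DMSO libraries, and rose 12.5-fold (edgeR adjusted p = 9.15e-18). Tns3, a tensin that links integrins to actin, rose in dTAG (0.64 ± 0.05 SE, edgeR adjusted p = 3.38e-10) and fell without LIF (−1.49 ± 0.06 SE, edgeR adjusted p = 9.33e-18), and Itgav, the integrin alpha V subunit, rose in dTAG (0.53 ± 0.06 SE, edgeR adjusted p = 3.7e-08). Without LIF, Parva, which links integrin-linked kinase to actin, rose 16.9-fold (edgeR adjusted p = 2.24e-19). Fermt1, an epithelial kindlin that activates integrins, had 64.5 and 62.3 CPM in WT no LIF libraries and 0.353 CPM in each WT LIF library. Outside the WT no LIF libraries Fermt1 had at most 0.792 CPM and the integrin gene Itga9 at most 0.704 CPM. The WT no LIF libraries alone thus carried both past the filter, and a rise of either without LIF does not count as support. Of 40 other cytoskeleton genes, 29 were tested, of which 11 rose and 4 fell in dTAG (median 0.23), and 13 rose and 10 fell without LIF (median 0.18). The last counts lie near the 34.0% and 34.4% of all tested genes. The actin-binding gene Cotl1 rose in both, 3.39-fold in dTAG (edgeR adjusted p = 4.25e-17) and 3.01-fold without LIF (edgeR adjusted p = 3.13e-16), as did the annexin gene Anxa5, 3.32-fold (edgeR adjusted p = 4.78e-12) and 4.72-fold (edgeR adjusted p = 3.82e-16). Myl12b, a myosin regulatory light chain, rose in dTAG (0.68 ± 0.05 SE, edgeR adjusted p = 4.47e-11), and Myh10, the heavy chain of non-muscle myosin IIB, rose 2.98-fold without LIF (edgeR adjusted p = 1.18e-16).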

How the data were processed

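Poly(A)-selected RNA of 8 mouse V6.5 ES cell libraries was read from 1 end at 40 bp after a strand-marking Illumina kit, per the labels' protocols. The deposited values are whole-number counts of reads for each RefSeq transcript, made by the authors with HISAT2, HTSeq and mm9, per the submitters' processing notes. Versions and the strand setting are not given in the sources used here, so reads of overlapping antisense genes may be included. HTSeq's summary lines were kept out. Of 41565 accessions, 41325 were named from RefSeq and 126 from GENCODE tables of GRCm38, 114 kept their accession, and counts were summed per symbol.

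Counts were analysed with edgeR 4.0.16 (R 4.3.3): TMM scaling, filterByExpr (minimum count 10), glmQLFit and glmQLFTest, all 4 groups in a single model with 4 residual degrees of freedom and no covariate. The filter left 10311 genes, and the biological coefficient of variation was 4.43%. P-values were Benjamini-Hochberg adjusted over all tested genes, and calls were made at 0.05. Each standard error equals the absolute log2 fold change over the root of its F value. The 4 comparisons were dTAG against DMSO, WT no LIF against WT LIF, the difference between these responses, and DMSO against WT LIF. The code was tested on simulated data. Where a group had 0 reads, folds are lower bounds against a floor of 3 reads over the group, and at 1 to 3 reads the ratio has an exact 95% interval, and both cover counting error only.

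The members and lists were chosen with earlier results of these data known. Members with a mean of at least 5 CPM in a group are given per library, and from each other list the 3 smallest adjusted p in each response are named. Alternatives were RLE size factors, DESeq2 1.42.0, other filters, leaving out each library, the 4 libraries of a comparison alone, single accessions, genes with 1 accession, and a replicate block. Replicates differed by more than sampling noise (chi-square over degrees of freedom 1.80 to 4.76), so none was counted as a duplicate.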

Additional observations from a re-analysis of the deposited data

Results flagged for a closer look

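For 5 genes the responses to dTag9 and to LIF withdrawal passed the test in opposite directions, and the difference between the responses was itself tested by edgeR as an interaction. How many of all tested genes did so was not counted, so the count of 5 is not a result about the set. Ccn2 fell in dTAG and rose without LIF, with a difference of −2.97 on the log2 scale (edgeR adjusted p = 1.60e-14), and Ccn1 did likewise, with a difference of −2.73 (edgeR adjusted p = 3.45e-16). The small rise of Ccn2 without LIF and the small fall of Ccn1 in dTAG are each lost when a single library is left out. Vcl had a difference of −1.90 (edgeR adjusted p = 8.19e-17) and S100a10 one of −1.86 (edgeR adjusted p = 1.14e-14). Vim went the other way, higher in dTAG and lower without LIF, with a difference of 2.15 (edgeR adjusted p = 4.39e-18).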

How the results depend on the processing

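Leaving out each library in turn gave 9 to 12 higher and 3 to 4 lower genes in dTAG, 28 to 30 and 2 to 4 without LIF, 4 to 6 and 21 to 25 for the difference of responses, and 6 to 9 and 6 to 13 for DMSO against WT LIF. Positive differences of responses numbered 3 with only genes of 1 accession, where fewer genes were tested. Of the single-gene results under all alternatives, 1959 kept direction and side of the threshold, 75 were no longer past it, 44 newly passed, and 2 turned round. The 2 were DMSO against WT LIF by the accession with most reads, 2.36 for Cald1 (adjusted p = 0.361) and 0.32 for Actn1 (adjusted p = 0.0634), where the accession's own reads replace the sum. Same-numbered replicates were not paired by the labels, and their deviations correlated at 0.02 to 0.04. With the replicate number as a block, 11 genes were higher and 3 lower in dTAG, 28 and 4 without LIF, 5 and 23 for the difference, and 8 and 13 for DMSO against WT LIF; Ccn1 in dTAG was not past the threshold (−0.25, adjusted p = 0.0555), Lmna without LIF was (−0.47, adjusted p = 0.0326), and no other gene's call changed. Fitting 4 libraries alone is not possible for the difference. Genes with several accessions and those under 10 reads in a group are limited by how few reads could be counted.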
